A study of Mus musculus with 6 samples.

Results

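Cluster n18-EPL-IN is the group of neurons of the mouse olfactory bulb that the deposited annotation names as interneurons of the external plexiform layer. Its members are all cells that carry this name in the annotation of neurons, 161 of 21746 neurons (0.740%) and of 51426 annotated cells of the bulb, which makes it the third smallest of 18 neuronal clusters. The cells came from 6 libraries of C57BL/6NJ mice aged 14 weeks, with 2 libraries in each of 3 groups and with pooled animals behind each library. Control mice carry the label of no manipulation, naris-occluded mice had an olfactory input blocked by a plug in a naris, and olfactory trained mice were deprived of water and learned to discriminate odors for a water reward. Occlusion and training lasted 6 weeks, and no group carried a transgene by its label. The study's text calls the occlusion unilateral and takes the occluded side as the deprived sample, and the sample titles name no side. The text speaks both of naive mice and of the open side of occluded mice as controls. Samples were grouped here by their labels. The labels give no sex. By the library column of the annotation, Ddx3y of the Y chromosome had UMIs only in the replicate 1 libraries, and Xist of the inactive X chromosome had at most 2 UMIs there against at least 7026 in each replicate 2 library, so the spread within a group cannot be told apart from a difference between sexes.

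The external plexiform layer lies between the glomeruli, where sensory axons end, and the layer of mitral cells, which send the output of the bulb to the cortex. Few cell bodies lie there, and its interneurons release GABA onto the dendrites of mitral and tufted cells and receive glutamate from them. Many of these interneurons hold parvalbumin, a calcium-binding protein of fast-firing inhibitory neurons, and others hold the peptides somatostatin, vasoactive intestinal peptide or corticotropin-releasing hormone.

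Values are counts of UMIs, each standing for a transcript molecule, scaled to CPM, the counts that a total of 1000000 UMIs would give, after the counts of all n18 cells were summed, and errors are SD over the 6 libraries. Control replicates 1 and 2 gave 36 and 28 n18 cells, naris-occluded replicates 22 and 27, and trained replicates 32 and 16. Their summed UMIs ran from 17149 to 39231 per library and 171691 in all, so that a gene at 100 CPM in n18 rests on fewer than 20 molecules. A cell of n18 held a median of 813 UMIs (range 520 to 6424) from 543 genes, with a median of 15.0% mitochondrial UMIs (range 4.11 to 45.0%), and the 10 deepest cells held 19.2% of the UMIs. Of the barcodes of n18, 7 also occurred in another library, among 2956 annotated cells with such shared barcodes. Free RNA from other cells was not removed. In the clustering of the whole bulb, 142 of the 161 cells lay in neuronal cluster N12, 8 in N14, 7 in N15 and 4 in 3 others.

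The regulatory sequence in front of several genes described here holds the same 8 letters, TGACGTCA, the palindromic full form of the cyclic AMP response element. They are shown because somatostatin is the classical gene of this element and because the other 4 genes belong to the lists of interneuron subtype, peptide, granin and processing genes described here. Sst and Pcsk1 had their highest level of the 18 clusters in n18, Pcsk1 at 93.2 ± 72.1 CPM against 41.3 CPM in n05-PGC-2. For both genes the gap to the next cluster was smaller than the SD. For Th, Scg2 and Chgb, n18 was the second. Promoters of 300 bases, from 250 before to 50 after the gene start, were taken from RefSeq on build GRCm38.p6, and the letters were searched on both strands, which for a palindrome are the same match. The 60 bases around each match are given 5′ to 3′ on the strand of the gene, with the match in capitals.
Sst: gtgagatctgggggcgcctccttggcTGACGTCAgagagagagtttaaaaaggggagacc
Th: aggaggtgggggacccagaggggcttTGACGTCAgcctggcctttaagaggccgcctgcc
Pcsk1: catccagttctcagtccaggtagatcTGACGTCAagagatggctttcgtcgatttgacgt
Scg2: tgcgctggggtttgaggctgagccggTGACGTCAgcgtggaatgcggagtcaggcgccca
Chgb: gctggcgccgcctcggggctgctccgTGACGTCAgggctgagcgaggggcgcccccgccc

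All 5 windows lie upstream of the gene start. The window of Sst is chr16:23890859-23890918 on the minus strand, with the match from 48 to 41 bases before the start. That of Th is chr7:142900007-142900066 on the minus strand, with the match from 45 to 38 bases before the start. The windows of Pcsk1 (chr13:75089753-75089812, plus strand), Scg2 (chr1:79440061-79440120, minus strand) and Chgb (chr2:132781544-132781603, plus strand) hold it from 78 to 71, 68 to 61 and 72 to 65 bases before the start. Of 27025 genes with a promoter in the table, 549 (2.03%) held the letters. They were found in 3 of 17 neuropeptide precursors (Cartpt, Scg2, Sst), 3 of 11 granins and prohormone processing genes (Chgb, Pcsk1, Scg2), 2 of 11 markers of interneuron subtypes (Sst, Th) and 0 of 15 matched genes among the 20 that lead n18. A match is a description of the letters and not of binding.

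The label was checked on its markers first. Slc32a1, which encodes the transporter that loads GABA and glycine into synaptic vesicles, was higher in n18 than in any other neuronal cluster. It stood at 2005 and 1560 CPM in the control libraries, 1401 and 1018 CPM in the naris-occluded and 1224 and 1516 CPM in the trained libraries, and at 1450 ± 336 CPM over all (SD, n = 6 libraries, 249 UMIs). The next clusters were the granule cell clusters n14-GC-7 (717 ± 196 CPM) and n07-GC-2 (603 ± 32.6 CPM), so the lowest n18 library lay above the mean of each. A UMI of Slc32a1 was found in 107 n18 cells (66.5%, 95% exact interval 58.6 to 73.7%, median depth 813 UMIs), or 48.4% after thinning each cell to 500 UMIs. In the mitral and tufted cluster n17-M/TC-3, which should lack the gene, the share was 5.39% at a median depth of 865 UMIs, or 2.59% after thinning. These intervals cover counting error only.

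Pvalb, the gene of parvalbumin, was nearly undetected. The control libraries held 0 and 0 of its UMIs, the naris-occluded 1 and 2, and the trained 4 and 3, 10 UMIs in 8 cells in all (4.97%, 95% exact interval 2.17 to 9.56%, 3.11% after thinning). The pooled level of 58.2 ± 67.4 CPM was the highest of the 18 clusters. However, the mitral and tufted cluster n16-M/TC-2 followed with 9 UMIs and 37.4 ± 44.4 CPM, within the spread between libraries. For comparison, 0.360% of n07 cells (median 882 UMIs) and 0.863% of n17 cells had a Pvalb UMI. Over all neurons of the 6 libraries the gene had 120 UMIs in 92 cells, and 7 of the 8 n18 cells with it also had Slc32a1. The label as inhibitory interneurons therefore rests on Slc32a1 here, and Pvalb does not set most n18 cells apart at this depth. The gene did not pass the filter for the tests between conditions. Levels of both markers across clusters are drawn beside 4 other genes.

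**Figure D1:**
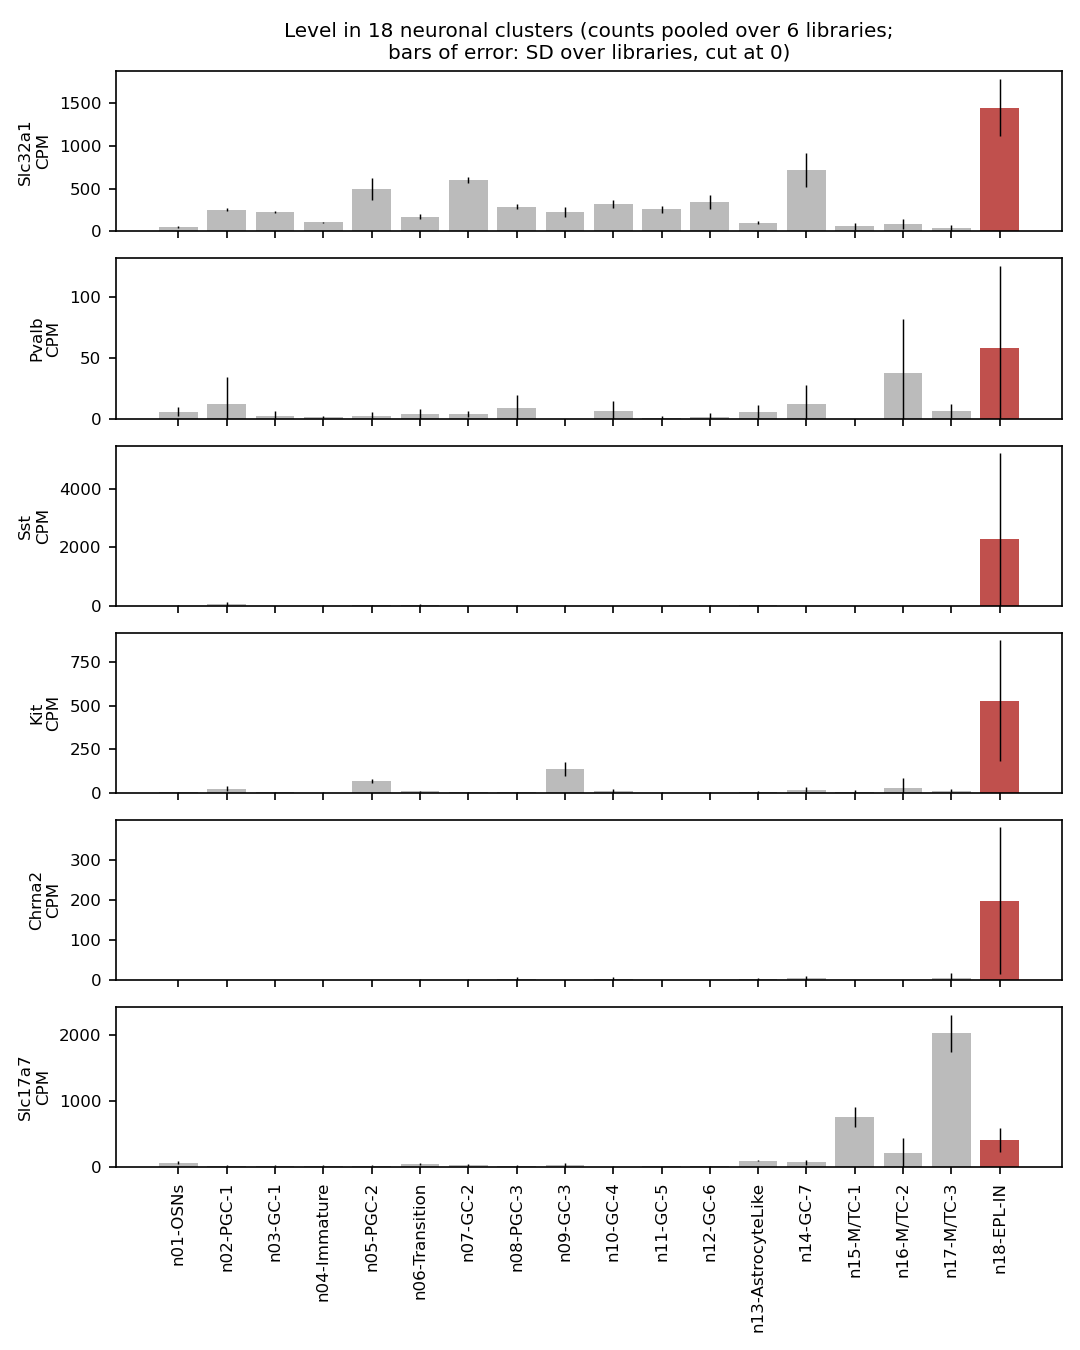
Level in CPM (vertical axes, linear) of 6 genes in the 18 neuronal clusters (horizontal axis), as bars of pooled counts with SD over 6 libraries, cut at 0, and with n18 in red. Slc32a1, Sst, Kit and Chrna2 are highest in n18, Sst by less than its SD. Pvalb is highest there by 10 UMIs against 9 in n16 and with error bars that overlap. Slc17a7 in n18 is below n17 and n15.

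Gad1 and Gad2, the enzymes that make GABA, did not lead in n18. Gad1 was 1025 ± 181 CPM, the seventh of 18, and Gad2 was 349 ± 121 CPM, the fourth. A UMI of Slc32a1, Gad1 or Gad2 was found in 136 of the 161 cells (84.5%). Among cells of whole-bulb cluster N12 the share was 88.0%, against 11 of the other 19 cells (57.9%). In 17 cells (10.6%) a vesicular glutamate transporter, Slc17a7 or Slc17a6, was found and none of the 3 genes of GABA cells.

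The genes that most set n18 apart were ranked by the ratio of its CPM to the highest of the other 17 clusters, with 10 CPM added to each, among 1426 genes with at least 20 UMIs in n18 and present in at least 5 libraries. Clusters were made by the authors from these same counts, so these are descriptions with no test. Chrna2, a nicotinic acetylcholine receptor subunit, came first, with 198 ± 183 CPM against 4.10 CPM in n17, a 48.3-fold difference that rests on 34 UMIs. C1ql3, a secreted protein of synapses, followed with 192 ± 195 CPM against 14.5 CPM in n05, but 14 of its 33 UMIs were in 1 cell. Of the 16 n18 cells with C1ql3, 13 had Slc17a7 and 3 had Slc32a1. Ache, which encodes the enzyme that breaks down acetylcholine, was better counted, with 126 UMIs in 68 cells. Its level was 1227 and 609 CPM in the control, 848 and 772 CPM in the naris-occluded and 433 and 408 CPM in the trained libraries, against 121 CPM in the next cluster, n02-PGC-1. All 6 n18 libraries were above that level.

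The leading 20 genes included cell-surface and adhesion genes. Thy1, a surface glycoprotein of mature neurons, was 1811 ± 460 CPM against 693 CPM in n17, and was lowest in control replicate 1 (1227 CPM) and highest in naris-occluded replicate 2 (2528 CPM). Chl1, a neural adhesion molecule of the L1 family, was 192 ± 198 CPM against 30.1 CPM in n17. It ran from 25.5 CPM in trained replicate 1 to 590 CPM in naris-occluded replicate 1, and was 118 CPM without the latter. For C1ql3, Chl1, Tyrp1, Epdr1, Lgi2 and Pcyox1l the gap to the next cluster was smaller than the SD. Omg, a glycoprotein first found in myelin, was 122 CPM against 25.6 CPM in n07. Nell2, a secreted neuronal glycoprotein, was 431 CPM against 82.7 CPM in n17. Kit, a receptor tyrosine kinase, was 530 ± 347 CPM against 136 CPM in n09-GC-3. Gaa, the lysosomal enzyme that degrades glycogen, was 1089 ± 297 CPM against 323 CPM in n17. The sodium, calcium and potassium exchanger Slc24a2 was 443 CPM against 167 CPM in n17. The other members were Slc7a14, Tyrp1, Tmem130, AY036118, Tmem178, Epdr1, Lgi2, Slc35g2, Sez6l and Pcyox1l, with n18 levels of 116 to 542 CPM. Levels that hung on 1 library were those of C1ql3 (125 CPM without naris-occluded replicate 1), Tyrp1 (57.9 CPM instead of 140 CPM without control replicate 1) and Pcyox1l (90.6 CPM instead of 140 CPM without trained replicate 1). The cluster next to n18 was n17 for 12 of the 20 genes and n05 for 3.

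**Figure D2:**
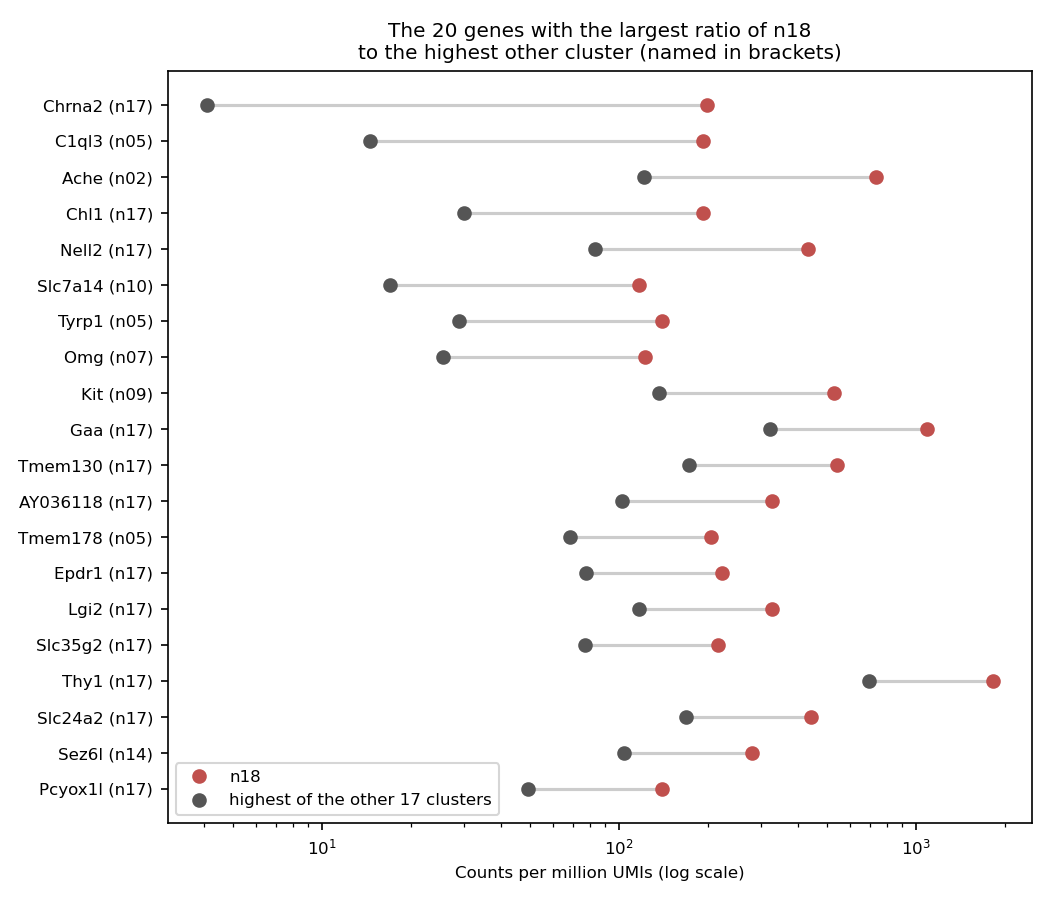
CPM (horizontal axis, log scale) of the 20 leading genes in n18 (red) and in the highest of the other 17 clusters (grey, named in brackets), pooled over 6 libraries. The gap is widest for Chrna2 (198 against 4.10 CPM), and Thy1 has the highest n18 level of the 20 (1811 CPM).

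Of the 1426 genes, 435 (30.5%) had their highest level in n18. These genes were filtered on their UMIs in n18 itself, which favours genes high there, so nothing is read from this share. The next cluster was n17 for 178 of them and n14 for 44. Among cells with at least 1000 UMIs this number was 272, from the 2 control libraries alone 174, and with at least 50 UMIs per gene 188. Gene lists were read against a wider background, the 3420 genes with a mean above 50 CPM in the other 17 clusters. Of these, 352 (10.3%) were highest in n18, and the median log2 ratio of n18 to the median of the other clusters was -0.25. Over 3428 genes, on a log2 scale with 10 CPM added, the profile of n18 had a Pearson correlation of 0.852 with n14 and 0.844 with n17, then 0.723 with n07. This is a description across genes, which share libraries and depth. The median UMIs per cell of n14 (690) and n17 (865) were near that of n18 (813). So were those of n07 (882), n01 (808.5) and n06 (730), whose correlations were 0.723, 0.655 and 0.587. The part of depth in these correlations was not tested.

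Genes of the secretory pathway were high as groups. Chaperones and other proteins of folding in the endoplasmic reticulum had 15 of 18 members (83.3%, against 10.3% of all genes) at their highest level in n18, with a median log2 ratio of 1.34 to the median of the other clusters. Canx, a lectin chaperone, was 1054 ± 254 CPM against 617 CPM in n17. Hsp90b1, the reticulum form of HSP90, was 984 ± 178 CPM against 569 CPM, and Calr, a calcium-binding lectin chaperone, was 914 ± 207 CPM against 620 CPM. Hspa5, the chaperone BiP, was 792 ± 270 CPM against 616 CPM, a gap within the spread between libraries. Several of these genes are also on the list of n18 genes that the study made from these cells, of which all 32 members over 50 CPM were highest in n18, so neither count is independent of the clustering.

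Granins and prohormone processing genes, which make and pack the contents of dense-core vesicles, had 7 of 11 members highest in n18 (median log2 ratio 1.86). Pcsk1n, the precursor of an inhibitor of prohormone convertase, was found in 148 of 161 cells. It was 3560 and 3235 CPM in the control, 4534 and 4248 CPM in the naris-occluded and 3492 and 4607 CPM in the trained libraries, all above the 2459 CPM of n14, the next cluster. Vgf, a neurotrophin-induced granin, was 1078 ± 581 CPM against 522 CPM in n10-GC-4, and Chga, chromogranin A, was 1083 ± 388 CPM against 819 CPM in n16. For Vgf and Chga the gap to the next cluster was smaller than the SD. The others were Scg3, Scg5, Pcsk2 and Pam, the enzyme that amidates peptides, and for Pcsk2 and Pam the gap was also smaller than the SD. Pcsk1 was highest in n18 too, but its mean in the other clusters was too low for the count. Lysosomal proteins, a list added after values were seen, had 10 of 12 members highest in n18 (median log2 ratio 1.93). Psap, the saposin precursor, ranged only from 3594 to 4548 CPM over the 6 libraries, against 2829 CPM in n17, and was found in 156 cells. Ctsb, a cysteine protease, was 1229 ± 383 CPM against 986 CPM in n17, a gap smaller than the spread, and Ctsd, an aspartic protease, was 827 ± 143 CPM against 556 CPM.

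Lists of synaptic genes ranged from 50% of members highest in n18 down to the background of 10.3%. For the neurexin, neuroligin and cerebellin list, 6 of 12 members were highest in n18 (median log2 ratio 1.08). Tspan7, a membrane tetraspanin, was 1363 ± 370 CPM against 602 CPM in n17, while Nrxn3, a presynaptic adhesion receptor, was 1054 ± 155 CPM against 1011 CPM in n07, no more than the spread. Vesicle release genes had 6 of 24 members highest in n18 (median log2 ratio 0.88). Sv2a, a glycoprotein of synaptic vesicles, was 3052 and 1789 CPM in the control, 1659 and 2282 CPM in the naris-occluded and 1988 and 2566 CPM in the trained libraries, against 925 CPM in n17. Syp, synaptophysin, was 1753 ± 379 CPM against 1283 CPM in n17. GABA and glycine receptors had 2 of 10 members highest in n18, Gabbr1, a subunit of the metabotropic GABA receptor (1025 ± 278 against 626 CPM in n17), and Glrb, the glycine receptor beta subunit (553 ± 265 against 365 CPM in n17, a gap smaller than the SD). Glutamate receptors had 1 of 10, the share of all genes, which was Gria1, an AMPA receptor subunit (641 ± 212 CPM, with 602 CPM in n05, within the spread), and this gene was also the only 1 of 10 listed granule cell markers to be highest in n18.

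**Figure D3:**
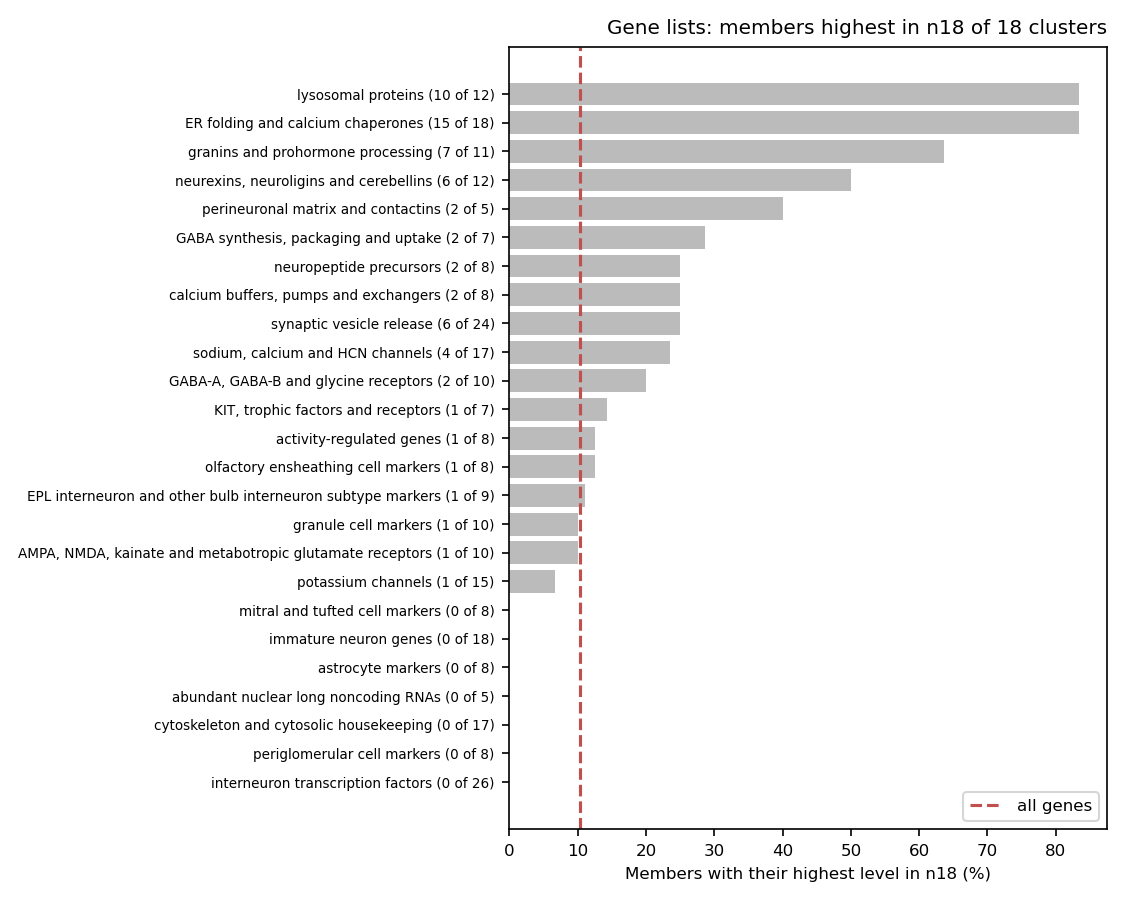
Percent of the members of 25 gene lists, over 50 CPM in the mean of the other clusters, that have their highest level in n18 (bars, linear axis from 0), with the number of members in brackets and the 10.3% of all genes as a dashed line. Lysosomal proteins and folding proteins of the endoplasmic reticulum reach 83.3%, and the transcription factor and immature neuron lists are at 0.

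Lists of channel and calcium genes ranged from 6.67% of members highest in n18 (potassium channels) to 25% (calcium buffers, pumps and exchangers). This range overlapped that of the synaptic lists. Sodium, calcium and HCN channels had 4 of 17 members highest in n18, all of them subunits of sodium channels. Scn1a, an alpha subunit of many fast-firing interneurons, was 274 ± 113 CPM against 171 CPM in n15-M/TC-1. Potassium channels had 1 of 15, the leak channel gene Kcnk1 (151 ± 95.6 CPM). Of the Kv3 channels, known from fast-firing neurons, Kcnc2 was 309 ± 127 CPM against 205 CPM in n05, though its mean in the other clusters was too low for the list's count, and Kcnc1 was 390 CPM, the third of 18. Calcium buffers, pumps and exchangers had 2 of 8, and Atp2a2, the calcium pump of the endoplasmic reticulum, was 1363 ± 309 CPM against 735 CPM in n14. The list of trophic factors and receptors had 1 of 7, the chemokine gene Cx3cl1 (862 ± 305 CPM, with 671 CPM in n14), and perineuronal matrix and contactin genes had 2 of 5, of which Cntn1, a contactin of axons, was 670 ± 219 CPM against 382 CPM. For Scn1a, Kcnk1, Kcnc2 and Cx3cl1 the gap to the next cluster was smaller than the SD over libraries.

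Other lists had few or no members highest in n18, where 10.3% of all genes would give about 1 in a list of 8 to 10, so a count of 0 in a short list is not read as a result. None of 26 transcription factors of interneurons was highest there (median log2 ratio -0.43). Cluster n18 was among the top 3 clusters for 2 of them and among the lowest 3 for 4. Meis2, a homeobox gene of most granule and periglomerular cells, was 390 CPM, the fifteenth of 18, and Dlx1 and Sp8, which specify bulb interneurons, were 122 and 69.9 CPM, the twelfth and the thirteenth. None of 18 genes of immature neurons, 8 markers of periglomerular cells or 8 of mitral and tufted cells was highest in n18, although Olfm1, a mitral cell gene, was the third of 18 at 938 CPM. The median log2 ratios of these 3 lists were 0.22, 0.12 and 1.42, so the mitral and tufted markers stood above the -0.25 of all genes, with n18 among the top 3 clusters for 4 of the 8 and a summed level that was the fourth of 18. Of 8 activity-regulated genes, Vgf alone was highest. Abundant nuclear long noncoding RNAs, chosen after values were seen, had none of 5 (median log2 ratio -1.38). Malat1 was 8358 CPM in n18, lower only in n01-OSNs (2019 CPM), n13-AstrocyteLike (3537 CPM) and n14 (4903 CPM), and 19130 to 77940 CPM in the others. Housekeeping genes of cytoskeleton and cytosol, also chosen afterwards, had none of 17 (median log2 ratio -0.37).

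Genes particularly low in n18 were sought among 722 genes at 100 CPM or more in all 10 other inhibitory clusters. Of these, 26 were lowest in n18 of all 18 clusters and 158 lowest among the inhibitory clusters. The lowest against every cluster included Gnb2l1, a protein of the small ribosomal subunit (81.5 CPM, log2 ratio -0.63 to the lowest other cluster), Apc, which acts in Wnt signaling (87.4 CPM, -0.49), and Rpl10a, a ribosomal protein (-0.45). Against the inhibitory clusters alone, Celf1, which binds RNA (-1.36), Ccdc88a, which binds actin (-1.28), and Btg1, which restrains proliferation (-1.13), were the lowest. These 3 rest on 7, 7 and 8 UMIs in n18, with 0 in 2 of the 6 libraries each, and Gnb2l1, Apc and Rpl10a on 14, 15 and 40. The minimum of 100 CPM was set on the other clusters alone, which favours genes low in n18, so nothing is read from the counts of 26 and 158. Ribosomal protein genes took 5.36% of the UMIs of n18, the seventeenth of 18 clusters.

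Markers of other cell types were present, and their part in the levels above was not tested. Astrocyte markers summed to 5673 CPM over n18, the fifth of 18 clusters, and to 3351 to 12828 CPM per n18 library. The sum in naris-occluded replicate 1 was above the 9470 CPM of n13-AstrocyteLike, and none of 8 markers was highest in n18. The median log2 ratios of the astrocyte, ensheathing cell and oligodendrocyte lists were 0.54, 0.50 and 0.39, against -0.25 for all genes. Apoe, made by astrocytes and other glia, was 4269 CPM, the fifth of 18. Olfactory sensory neuron markers, S100a5 among them, summed to 627 to 1941 CPM, oligodendrocyte markers to 1050 to 2322 CPM, microglia markers to 76.1 to 597 CPM, endothelial and mural markers to 316 to 885 CPM, and red blood cell genes to 76.5 to 329 CPM. The sum for ensheathing cells, 816 to 14451 CPM and the highest of the 18 clusters over n18, includes Npy, which interneurons also make. At 0 UMIs in n18 were 4 of 12 microglia and macrophage markers, with Cx3cr1 and Tmem119, and 3 of 12 oligodendrocyte markers, with Mag. So were 4 of 10 sensory neuron markers, with Cnga2 and Cnga4, and 3 of 14 mitral and tufted markers, with Tbx21. The other members of these lists were detected.

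Within n18, peptide and receptor genes were found in sets of cells that partly overlapped. These genes were chosen after their values were seen, and the counts are descriptions. Of 9 listed markers of interneuron subtypes over 50 CPM, 1 (11.1%) was highest in n18, near the 10.3% of all genes. The listed markers Calb2, Reln and Nos1 had 47, 22 and 10 UMIs in n18. These are 0.0769%, 0.730% and 0.841% of those of all neurons, while n18 cells are 0.740% of all neurons. Only Calb2 was far below that share. The broadest set held Kit, Th, which makes the dopamine precursor, or Trh, the precursor of thyrotropin-releasing hormone. At least 1 of the 3 was found in 59 cells (36.6%), and 48 of them had Slc32a1. Kit had 91 UMIs in 47 cells (29.2%, or 24.2% after thinning), against 1.40% of n17 cells and 0.277% of n07 cells. By level its next cluster was n09-GC-3, at 136 CPM, and n18 held 47 of the 254 neurons with Kit. Th was found in 20 of the 47 cells with Kit and in 8 of the 114 without it, and Trh in 16 and 6. Both Th and Trh were higher in n05, at 1295 and 3902 CPM, than in n18, at 256 and 868 CPM. Cells of this set numbered 26 of 36 (72.2%) and 10 of 28 (35.7%) in the control libraries, 7 of 22 (31.8%) and 3 of 27 (11.1%) in the naris-occluded, and 7 of 32 (21.9%) and 6 of 16 (37.5%) in the trained libraries. Control replicate 1 stood apart from the other 5 libraries.

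Sst, the somatostatin gene, was confined to few cells. It had 390 UMIs in 9 n18 cells (5.59%, before and after thinning, against 0.216% of n17 cells), of which 155, 92 and 73 lay in 3 cells, and its level was 2272 ± 2959 CPM, or 414 CPM without these 3 cells. The control libraries held 184 and 11 of them, the naris-occluded 177 and 0, and the trained 0 and 18, so the 2 high libraries each owe their level to 1 or 2 cells. With these 3 cells included, n18 held 64.7% of the Sst UMIs of all neurons, but only 9 of the 82 neurons with an Sst UMI. The next cluster, n02, was at 47.4 CPM, and the gap to it was smaller than the SD. Of the 9 cells, 8 had Npy and 8 had Slc32a1. Npy, the neuropeptide Y gene, was found in 55 cells (34.2%), near its share in n17 (32.1%) and n07 (31.0%), and in n13 it was 36.5%. Of its 641 UMIs, 74.6% were in 3 cells, and without them its level was 966 CPM instead of 3733 CPM. At this background, an Npy UMI alone does not mark a cell.

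Vip and Crh, the genes of vasoactive intestinal peptide and corticotropin-releasing hormone, marked another small set. Vip had 76 UMIs in 6 cells, 1 in each library, and 5 of these also had Crh and 5 had Kit. Its level, 443 ± 225 CPM, was matched by n02 (451 ± 231 CPM). Chrna2 was found in 15 cells (9.32%), against 0.216% of n17 cells. Of these, 13 had Slc32a1, 1 had Kit and none had Th, Trh or Slc17a7. Its UMIs numbered 1 and 2 in the control, 13 and 10 in the naris-occluded and 3 and 5 in the trained libraries, and n18 held 65.4% of the Chrna2 UMIs of all neurons. Naris-occluded libraries were above the other 4, but the gene was too sparse for the test between conditions.

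A last set held a transporter of excitatory cells. Slc17a7, the vesicular glutamate transporter VGLUT1, had 71 UMIs in 28 cells (17.4%, or 13.7% after thinning), against 3.38% of n07 cells at a median of 882 UMIs, and 77.1% of n17 cells. Only 3 of the 28 cells had Slc32a1, against 104 of the 133 cells without Slc17a7. Cck, a peptide gene of tufted cells, was found in 17 of the 28, Nell2 in 17, C1ql3 in 13 and Kit in 1. Of the 8 n18 cells that lay in whole-bulb cluster N14, 7 had Slc17a7. Slc17a7 or C1ql3 was found in 2 of 36 and 6 of 28 cells of the control libraries, 4 of 22 and 7 of 27 of the naris-occluded, and 8 of 32 and 4 of 16 of the trained libraries, lowest in control replicate 1. Of these 31 cells, 5 (16.1%) had Slc32a1. None of the genes of the 5 sets was found in 52 cells (32.3%), of which 36 had Slc32a1, and genes of more than 1 set were found in 12 cells.

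**Figure D4:**
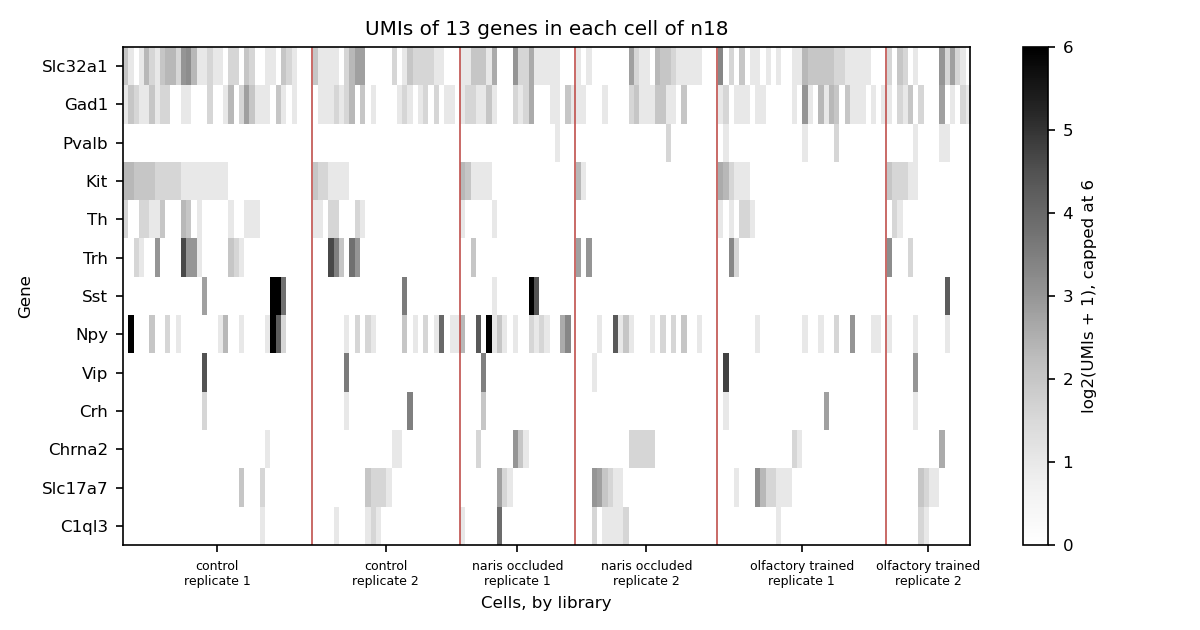
UMIs of 13 genes (rows) in each of the 161 n18 cells (columns, grouped by library between red lines), shaded by log2(UMIs + 1) up to 6. Kit, Th and Trh share cells and are densest in control replicate 1, Sst lies in 9 cells, and cells with Slc17a7 mostly lack Slc32a1.

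Whether n18 changed in number with olfactory experience was compared over libraries. Its share of neurons was 0.813% (95% exact interval 0.570 to 1.12%) and 0.906% (0.603 to 1.31%) in the control libraries, 0.738% (0.463 to 1.11%) and 0.791% (0.522 to 1.15%) in the naris-occluded, and 0.633% (0.433 to 0.892%) and 0.576% (0.330 to 0.934%) in the trained libraries. The groups did not overlap, in the order control, naris occluded, trained, but all 6 counting intervals did. In edgeR's quasi-likelihood test over the 18 clusters with Benjamini-Hochberg adjustment, the log2 difference between naris-occluded and control mice was -0.16 (95% interval -0.87 to 0.55, adjusted p = 0.774), where 1 of 18 clusters (5.56%) passed at 0.05. That between trained and control mice was -0.49 (-1.20 to 0.23, edgeR adjusted p = 0.439), where 0.0% of clusters passed. Between trained and naris-occluded mice it was -0.33 (-1.06 to 0.41, edgeR adjusted p = 0.484), where 3 clusters (16.7%) passed. No change in the number of n18 cells was detectable, and an exact permutation test of 2 against 2 libraries cannot give a p below 0.333. Among the 59 cells with at least 1000 UMIs, both differences of the trained libraries turned positive, at 0.23 and 0.40.

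Expression within n18 was compared between conditions on the UMIs of each library, summed over its n18 cells, with the quasi-likelihood test of edgeR and Benjamini-Hochberg adjustment over the 518 genes that passed its filter on low counts. In mixed sets such as n18, a change in which cells were sampled and a change of RNA per cell cannot be told apart. Between naris-occluded and control mice 9 genes (1.74%) were called, 4 higher and 5 lower, between trained and control mice 4 (0.772%), 2 in each direction, and between trained and naris-occluded mice 0 (0.0%). At an unadjusted p under 0.05 there were 56, 35 and 26 genes. DESeq2 called 2, 0 and 0 genes, with 14, 9 and 9 at an unadjusted p under 0.05. With the replicate number as a block, edgeR called 10, 4 and 2 genes. The first 2 comparisons share the control libraries. Without control replicate 1 they gave 3 and 2 genes, without control replicate 2 they gave 18 and 8, and without trained replicate 2 they gave 2 and 0. Without naris-occluded replicate 1 the trained comparison with control gave 7.

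Trh fell the most in naris-occluded mice. It stood at 1646 and 2169 CPM in the control, 111 and 456 CPM in the naris-occluded and 280 and 583 CPM in the trained libraries, and both control libraries were above the other 4. The log2 difference was -2.54 ± 0.42 (SE, edgeR adjusted p = 0.00169) for naris-occluded mice and -2.12 ± 0.40 (SE, edgeR adjusted p = 0.00375) for trained mice. Without naris-occluded replicate 1 the first difference was -1.94 and without replicate 2 it was -3.94. With DESeq2 the adjusted p was 0.0360 and 0.396, and without trained replicate 1 or 2 the trained call was lost (edgeR adjusted p = 0.242 and 0.0707). Over 12 alternatives the adjusted p of edgeR or DESeq2 ran from 1.22e-08 to 0.183 for naris-occluded and from 4.39e-06 to 0.632 for trained mice. Cells with Trh numbered 10 and 5 in the control, 1 and 2 in the naris-occluded and 2 and 2 in the trained libraries, and a single cell held 24 UMIs in each control library, of 55 and 57. The set with Kit, Th or Trh was also larger in control replicate 1, as given above. The other listed markers of periglomerular cells, Trh left out, summed in n18 to 1316 and 1218 CPM in the control, 627 and 562 CPM in the naris-occluded and 714 and 641 CPM in the trained libraries, so both control libraries were above the other 4. The part of these cells and markers in the difference was not tested. In all other neurons, Trh was 184 and 207 CPM in the control, 172 and 184 CPM in the naris-occluded and 164 and 145 CPM in the trained libraries.

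S100a5, a calcium-binding protein made in quantity by olfactory sensory neurons, also fell. In n18 it was 1017 and 1066 CPM in the control, 184 and 176 CPM in the naris-occluded and 790 and 292 CPM in the trained libraries, and the naris-occluded libraries were below the other 4. The log2 difference between naris-occluded and control mice was -2.34 ± 0.47 (SE, edgeR adjusted p = 0.0109). Its UMIs were spread over 30 control and 9 naris-occluded n18 cells, at most 11 in 1 cell. By mean, S100a5 was lower in naris-occluded than in control mice in all 17 other clusters as well, so the fall was not particular to n18. The gene was higher in the other neurons, which include the sensory neurons, with 2276 and 2350 CPM in the control, 1103 and 360 CPM in the naris-occluded and 2050 and 1469 CPM in the trained libraries. The other listed markers of sensory neurons, S100a5 left out, summed in n18 to 898 and 875 CPM, 442 and 667 CPM, and 688 and 816 CPM in the same order, and their part in the S100a5 difference was not tested. Without naris-occluded replicate 2 the call was lost (edgeR adjusted p = 0.0657), and over 12 alternatives the adjusted p of edgeR or DESeq2 ran from 4.68e-05 to 0.243.

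Vgf, described above among the granins, fell in naris-occluded mice. It went from 1795 and 1827 CPM in the control to 700 and 562 CPM in the naris-occluded libraries, with 637 and 991 CPM in the trained libraries. The control libraries lay above all others. The log2 difference was -1.35 ± 0.32 (SE, edgeR adjusted p = 0.0309) for naris-occluded mice and -1.06 ± 0.31 (SE, edgeR adjusted p = 0.261) for trained mice. Its UMIs came from 22 and 21 control, 11 and 8 naris-occluded and 8 and 9 trained cells, with at most 8 in 1 cell. In the other neurons Vgf was 63.7 and 75.7 CPM in control mice, 44.1 and 42.5 CPM in naris-occluded mice and 80.5 and 64.2 CPM in trained mice, lowest in both naris-occluded libraries. The call was lost in 8 of 12 alternatives, with DESeq2 among them (adjusted p = 0.839), while the lowest adjusted p over these edgeR and DESeq2 fits was 0.0122, and the fitted difference ran from -1.57 to -1.26. Chchd10, a mitochondrial protein, differed by -1.57 (edgeR adjusted p = 0.0309), a call lost in 7 of 12 alternatives, whose adjusted p in edgeR or DESeq2 ran from 0.00527 to 0.885, the value with DESeq2. Nrsn1, a neuronal vesicle protein, differed by -1.35 (edgeR adjusted p = 0.0453), a call lost in 8 of 12, from 0.0149 to 0.995, again with DESeq2. In the other neurons Chchd10 was 961 and 901 CPM in control, 791 and 798 CPM in naris-occluded and 917 and 701 CPM in trained mice. Nrsn1 there was 837 and 887 CPM, 599 and 589 CPM, and 761 and 751 CPM in the same order, lowest in both naris-occluded libraries. By mean, Vgf, Chchd10 and Nrsn1 were lower in naris-occluded than in control mice in 15, 16 and 14 of the 17 other clusters. Vgf, Chchd10, Nrsn1, Ptn, Meg3 and Scn2a1 were described here after their values were seen.

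Cck was the highest riser in naris-occluded mice, with 299 and 343 CPM in the control, 2285 and 597 CPM in the naris-occluded and 739 and 875 CPM in the trained libraries. The log2 difference was 2.32 ± 0.48 (SE, edgeR adjusted p = 0.0109). In naris-occluded replicate 1, 29 of its 62 UMIs were in 1 cell, and without that library the log2 difference was 1.01 (edgeR adjusted p = 0.542, in a range over 12 alternatives from 1.40e-06 to 0.738). Of the other genes found in the cells with Slc17a7, Slc17a7 itself was 150 and 381 CPM in the control and 332 and 702 CPM in the naris-occluded libraries (log2 difference 1.19, edgeR adjusted p = 0.413). Nell2 was 120 and 304 CPM in the control and 442 and 702 CPM in the naris-occluded libraries (1.65, edgeR adjusted p = 0.164), and the part of these cells in the Cck difference was not tested. Ptn, a heparin-binding growth factor, was 868 and 1104 CPM in the control, 4902 and 2247 CPM in the naris-occluded and 1122 and 2158 CPM in the trained libraries, and differed by 2.02 (edgeR adjusted p = 0.0109). In naris-occluded replicate 1, 74 of its 133 UMIs were in 1 cell, and without that library the difference was 1.30 (edgeR adjusted p = 0.103). The call was lost in 4 of 12 alternatives, whose adjusted p in edgeR or DESeq2 ran from 0.000393 to 0.171. Astrocyte markers were also highest in that library, at 12828 CPM against 3351 and 4910 CPM in the control libraries, and their part in the difference was not tested. Scn2a1, an alpha subunit of sodium channels, was spread more evenly, at 180 and 228 CPM in the control, 663 and 702 CPM in the naris-occluded and 433 and 467 CPM in the trained libraries, and at most 6 UMIs were in 1 cell. Its log2 difference was 1.91 ± 0.47 (SE, edgeR adjusted p = 0.0349). The call was lost in 6 of 11 alternatives, whose adjusted p in edgeR or DESeq2 ran from 0.0139 to 0.839, the value with DESeq2. In the other neurons Scn2a1 was 91.5 to 119 CPM per library. Meg3, a nuclear long noncoding RNA, was called at the edge of the threshold (log2 difference 1.93, edgeR adjusted p = 0.0499). Its call was lost in 7 of 12 alternatives, whose adjusted p in edgeR or DESeq2 ran from 0.000393 to 0.995. The difference was 4.35 without control replicate 1, 1.13 without control replicate 2, and 0.48 among the n18 cells of cluster N12 alone, an alternative chosen after seeing the data.

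In trained mice, the calls other than Trh were Npy, Ptgds and Meg3. Npy differed by -4.36 ± 0.81 on the log2 scale (SE, edgeR adjusted p = 0.00375), but 322 of the 423 UMIs of control replicate 1 were in 1 cell, and without that library the difference was -1.83 (edgeR adjusted p = 0.603, in a range over 12 alternatives from 2.32e-22 to 0.632). Ptgds, which makes prostaglandin D2 and is made in the brain mainly by meningeal and glial cells, was 748 and 647 CPM in the control and 1810 and 3499 CPM in the trained libraries, with 1548 and 983 CPM in the naris-occluded. Its log2 difference was 2.03 ± 0.38 (SE, edgeR adjusted p = 0.00375), and 46 of 71 and 54 of 60 UMIs of the trained libraries were in 1 cell each. The call was lost in 4 of 12 alternatives, among them DESeq2 (adjusted p = 0.0529) and the fit without trained replicate 2 (log2 difference 1.58, edgeR adjusted p = 0.137), in a range from 1.36e-05 to 0.137. In the other neurons Ptgds was 711 and 560 CPM in the control and 870 and 409 CPM in the trained libraries. Meg3 had 26 and 2 UMIs in the control, 55 and 30 in the naris-occluded and 92 and 41 in the trained libraries (log2 difference 2.56, edgeR adjusted p = 0.00405), with at most 38 in 1 cell. This difference was 4.98 without control replicate 1, 1.76 without control replicate 2 and 0.13 among the n18 cells of cluster N12 alone. The call was lost in 4 of 12 alternatives, among them DESeq2 (adjusted p = 0.996) and the fit without trained replicate 2 (edgeR adjusted p = 0.116), in a range from 1.22e-08 to 0.996.

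**Figure D5:**
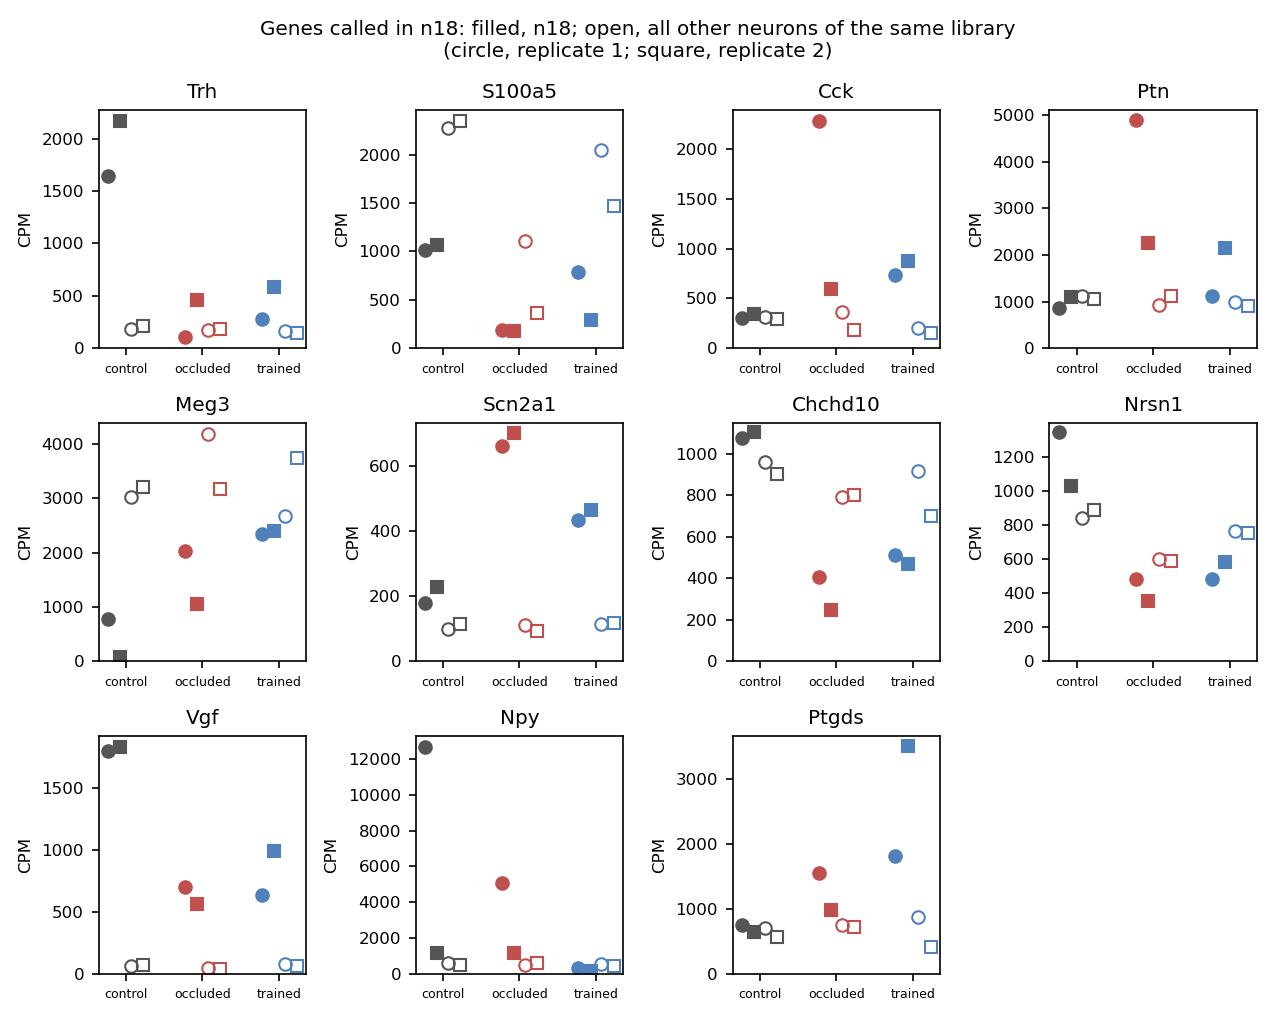
CPM (vertical axes, linear) of the 11 genes called in n18 in either comparison with control, in n18 (filled) and in all other neurons of the same library (open), for control (grey), naris-occluded (red) and trained (blue) mice, with replicate 1 as circles and replicate 2 as squares. Trh and Vgf are highest in both control libraries of n18, and S100a5 is low in both naris-occluded libraries in n18 and in the other neurons.

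Slc32a1 and Kit, both highest in n18, did not pass the test between conditions. Slc32a1 differed by -0.40 ± 0.33 (SE, edgeR adjusted p = 0.780) in naris-occluded and -0.24 ± 0.33 (SE, edgeR adjusted p = 0.938) in trained mice. Kit was 1167 and 419 CPM in the control, 405 and 176 CPM in the naris-occluded and 357 and 641 CPM in the trained libraries, and differed by -1.32 ± 0.50 in naris-occluded mice (SE, edgeR adjusted p = 0.292). Apoe, highest in naris-occluded replicate 1 (11021 CPM), differed by 1.53 ± 0.43 in naris-occluded mice (SE, edgeR adjusted p = 0.0966). By list, 0 of 5 tested genes of GABA synthesis, packaging and uptake, 0 of 9 folding proteins and 0 of 13 vesicle release genes were called in either comparison with control. With 1.74% and 0.772% of all 518 genes called, a count of 0 in lists of this size is no result about them. Of 9 granins and processing genes, 1 (Vgf) was lower in naris-occluded mice and none was called in trained mice. Of 7 neuropeptide precursors, 1 was higher and 2 lower in naris-occluded mice and 2 were lower in trained mice, which are the genes Cck, Trh, Vgf and Npy described above.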

How the data were processed

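Single-cell RNA was measured in 6 libraries of dissociated olfactory bulb with the 10x Chromium 3′ v2 kit. The authors deposited raw UMI counts per gene and barcode, without normalization, in 1 table for all libraries. The submitters' processing notes name Cell Ranger 2.0.0, Seurat 2.2.1 and the build mm10, and the methods state a minimum of 200 genes per cell, regression on molecules and mitochondrial genes, merging of clusters and removal of doublets, so no doublet caller was run. The authors also deposited annotations that give, for each cell, its library, its cluster and the fraction of mitochondrial UMIs.

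Cluster n18 was taken from the annotation of neurons and the library from its library column, since the starts of the trained cell names are reversed against that column, and with the column Xist and Ddx3y split the trained libraries by replicate number as they do the other groups. The labels give no sex. The sums of the deposited counts lie slightly below the UMI totals in the annotation for part of the neurons, and the sums were used. UMIs were summed per cluster and library and scaled to CPM. Shares of cells with a UMI have exact binomial intervals and are repeated with cells thinned to 500 UMIs. Named genes are the markers, members of gene lists, the 20 genes with the largest ratio to the next cluster, the 10 lowest, and in each contrast the 3 largest called changes, or all where 5 or fewer passed. Members, lists and rules were chosen with earlier results of these data known.

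Counts summed over n18 cells per library (17149 to 39231 UMIs) and numbers of cells per cluster were tested with edgeR 4.0.16 (R 4.3.3) over all 6 libraries by group, with TMM factors and the filter by expression for genes, the library's neurons as offset for cells, and Benjamini-Hochberg adjustment at 0.05. The tests were tried on simulated data first. Alternatives were DESeq2 1.42.0, its size factors, no filter, a replicate block, cells with at least 1000 UMIs, other totals, the chi-square test on pooled cells and leaving out each library. Libraries are pools of animals, so p-values measure the spread between these pools. RefSeq promoters on GRCm38.p6 were searched in Python 3.11.15. The deposited table of processed values was not used. Some genes of these lists are not reported here.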

Additional observations from a re-analysis of the deposited data

How the results depend on the processing

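The count of 435 genes highest in n18 was 272 among cells with at least 1000 UMIs, 174 in the 2 control libraries, 188 with at least 50 UMIs per gene and 352 to 405 without each library in turn. Slc32a1 was 1809 CPM in the 2 control libraries, and 1316 to 1536 CPM without each library, and Pvalb 45.3 to 72.3 CPM. Pvalb was 30.7 CPM with cells of at least 1000 UMIs and 0 in the 2 control libraries. With cells of at least 1000 UMIs, the log2 differences in the share of n18 reversed to 0.23 for trained against control (edgeR adjusted p = 0.913) and 0.40 for trained against naris-occluded mice (edgeR adjusted p = 0.888), and the cause was not tested. All other alternatives kept the direction of the 3 share differences and passed no threshold. The chi-square test on pooled cells (p = 0.0827 for trained against control) treats cells as replicates. It leaves out the spread between libraries, so nothing is read from it.

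The 9 genes called in naris-occluded against control mice became 2 with DESeq2, 0 with cells of at least 1000 UMIs, 3 with n18 cells of cluster N12 only (an alternative chosen after seeing the data), and 2 to 18 without each library. The 4 called in trained against control mice became 0, 0, 1 and 0 to 8. The 0 called between trained and naris-occluded mice became 2 with no filter on low counts and 0 to 5 without each library. Leaving out a library assumes that the lone library of its group varies like the others.

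Sex-linked genes went with the replicate numbers in all 3 groups, while the labels give no sex. Deviations of same-numbered n18 libraries from their group means were compared over 518 genes. The correlations were 0.17 (control and naris occluded), -0.11 (control and trained) and -0.19 (naris occluded and trained). The main tests did not pair libraries by number, though sums over so few cells cannot show that an effect of the number is absent. With the number as a replicate block, 10, 4 and 2 genes were called, and the share differences were -0.16, -0.49 and -0.32 (edgeR adjusted p = 0.813, 0.514 and 0.477). With 17149 to 39231 UMIs per library, 518 genes passed the filter on low counts, and genes outside it, such as Chrna2 (198 CPM), were not tested between conditions.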
